A study of Mus musculus with 3 samples.

Results

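Liver small RNA libraries were examined for the 7 mature products of the miR-125, miR-99 and miR-100 hairpins that were chosen by name from the 1908 listed mouse microRNAs. They are mmu-miR-125a-5p, mmu-miR-125a-3p, mmu-miR-125b-5p, mmu-miR-99a-5p, mmu-miR-99b-5p, mmu-miR-99b-3p and mmu-miR-100-5p, written below without the species prefix mmu, where 5p and 3p name the arm of the hairpin that a mature strand comes from. All 7 had reads in every library. The livers came from C57BL/6J males of 8 to 10 weeks, a common inbred mouse strain, with no genetic change. Each group was given 1 library. The Sham group had the abdomen opened and waited 90 min without clamping. The warm ischemia (WI) group had the vessels to the left and median lobes clamped for 90 min. The ischemia followed by reperfusion (IR) group was clamped for 90 min, and flow was then restored for 120 min. The study used 6 mice per group, and how many of them contributed RNA to a library was not stated. IR livers were taken later after surgery than Sham and WI livers, so reperfusion and time since surgery cannot be told apart.

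A microRNA is cut from a hairpin in a longer transcript, and 1 strand is loaded into an Argonaute protein that it guides to messenger RNAs by base pairing. Bases 2 to 8, the seed, carry most of the target choice, so microRNAs with the same seed are grouped as a family. The miR-125 family is the vertebrate counterpart of lin-4, which times development in the worm Caenorhabditis elegans. MiR-125b is known to act on messenger RNAs of the p53 and Toll-like receptor pathways, and the miR-99 family is known to act on mTOR, a kinase that drives growth. In the mouse genome these microRNAs lie with a let-7 hairpin in 3 clusters, each of which joins a miR-99 or miR-100 hairpin to a miR-125 hairpin.

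The mature sequences, taken from RefSeq (GRCm38.p6 table, where all 7 were matched), are shown because the comparison turns on 2 seeds shared by near-identical microRNAs. They are written 5′ to 3′ with the seed in capitals.
miR-125a-5p: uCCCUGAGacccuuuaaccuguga
miR-125b-5p: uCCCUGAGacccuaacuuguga
miR-351-5p: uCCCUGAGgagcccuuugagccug
miR-99a-5p: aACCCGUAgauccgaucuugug
miR-99b-5p: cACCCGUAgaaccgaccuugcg
miR-100-5p: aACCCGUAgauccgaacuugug
miR-125a-3p: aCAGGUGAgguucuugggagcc
miR-99b-3p: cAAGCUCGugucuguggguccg
MiR-125a-5p (24 nt) and miR-125b-5p (22 nt) are identical over their first 13 bases. MiR-351-5p does not come from these clusters but has the same seed. MiR-99a-5p and miR-100-5p differ at 1 base, U16A (the base of miR-99a-5p, the position from its 5′ end, the base of miR-100-5p), so a sequencing error there can move a read from one to the other. MiR-99a-5p and miR-99b-5p differ at 4 bases, A1C, U11A, U16C and U21C, none of them in the seed.

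The hairpins were placed on the NCBIM37 (mm9) assembly. On chromosome 17, miR-99b (chr17:17967152-17967221), let-7e (chr17:17967316-17967408) and miR-125a (chr17:17967767-17967851) lie on the plus strand within 700 bp. The miR-125a hairpin overlaps an exon of Ncrna00085, and the miR-99b hairpin overlaps no other annotated gene. On chromosome 16, miR-99a (chr16:77599181-77599245), let-7c-1 (chr16:77599902-77599995) and miR-125b-2 (chr16:77646518-77646588) span 47408 bp on the plus strand. The first pair lies antisense in an intron of Gm11146, and miR-125b-2 overlaps no other gene. On chromosome 9, miR-100 (chr9:41339508-41339587), let-7a-2 (chr9:41344799-41344894) and miR-125b-1 (chr9:41390009-41390085) span 50578 bp on the plus strand in introns of the long non-coding RNA gene D230004N17Rik, and miR-125b-1 lies also in an intron of 2610203C20Rik. MiR-125b-5p is thus made from 2 hairpins and its reads cannot be assigned to either, whereas miR-125a-5p has 1.

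Reads assigned to microRNAs numbered 3844133 for Sham, 5064014 for WI and 3784539 for IR. Levels are given as reads per 1000000 (CPM) of library totals after scaling by TMM, the trimmed mean of M-values. Reads come from short molecules of nearly the same length, so no division by length was made. The microRNAs taken as hepatocyte markers were abundant, miR-122-5p at 15364 to 18999 CPM and miR-192-5p at 236770 to 258042 CPM. No other tissue was compared, so these levels do not test the liver origin. Read counts were compared by Fisher's exact test, two-sided, and each p-value speaks of 2 libraries, not of 2 conditions, because no group had a replicate. Calls required a fold above 1.5 (0.58 on the log2 scale) with p under 0.01, the cut-offs in the methods of the study. The study scaled by the mapped reads of a sample, whereas totals here are reads assigned to microRNAs, so calls can differ. A difference with p under 0.01 but a smaller fold is described as beyond counting error.

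Among the 5p arms of the chromosome 17 cluster, miR-99b-5p was the most abundant member in Sham and IR and miR-125a-5p in WI. Mmu-miR-125a-5p had 17159 reads (Sham), 21577 (WI) and 11309 (IR), or 4333, 4435 and 2957 CPM. Its level was thus similar in Sham and WI and lowest in IR. Mmu-miR-99b-5p had 19913, 20550 and 13397 reads, or 5028, 4224 and 3503 CPM, stepping down at each stage.

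The members with a chromosome 9 or 16 origin had lower levels. Mmu-miR-100-5p had 8174 reads (Sham), 7541 (WI) and 5748 (IR), or 2064, 1550 and 1503 CPM, with Sham apart from the other two. Mmu-miR-125b-5p had 5569, 5978 and 4774 reads, or 1406, 1229 and 1248 CPM. Again Sham was the highest, and the 95% counting intervals of WI (1198 to 1260 CPM) and IR (1213 to 1284 CPM) overlapped. Mmu-miR-99a-5p had 2363, 2269 and 2066 reads, or 597, 466 and 540 CPM, lowest in WI.

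The 3p arms were rare strands of the same hairpins as the major 5p arms. Mmu-miR-125a-3p had 26 reads (Sham), 27 (WI) and 7 (IR), or 6.57, 5.55 and 1.83 CPM. It was the rarest member in every library and lowest in IR. Mmu-miR-99b-3p had 35, 39 and 30 reads, or 8.84, 8.02 and 7.85 CPM, with overlapping counting intervals throughout. Every member stood above 3 reads, the floor taken as distinguishable from none, which is 0.617 to 0.785 CPM in these libraries.

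**Figure D1:**
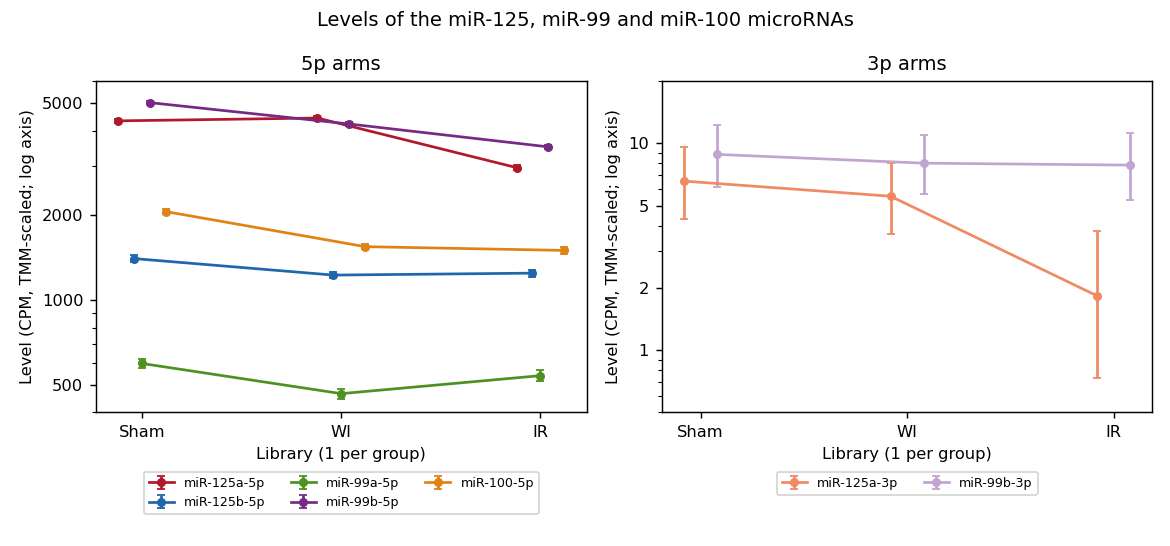
Level in CPM (TMM-scaled, log axis) of the 5p arms (left) and 3p arms (right) in the Sham, WI and IR libraries, 1 library per group; bars are 95% Poisson intervals, which cover counting error only. MiR-125a-5p goes from 4435 CPM in WI to 2957 in IR, while miR-125b-5p stays between 1229 and 1406 in the 3 libraries.

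The first comparison, WI against Sham, addressed ischemia alone. None of the 7 members was called, beside 1.92% of the 782 microRNAs tested (0.512% called lower). Beyond counting error, 4 of 7 members were lower in WI, namely miR-100-5p, miR-99a-5p, miR-99b-5p and miR-125b-5p. The share of microRNAs that were lower in this sense was 4.35% over all tested and 21.7% (37.5% higher) over the 120 with at least 1000 reads in the 2 libraries, a depth that these 4 members also have. The median log2 fold change of the 7 members was -0.24, and that of all tested microRNAs was 0.05.

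MiR-100-5p had the lowest log2 fold change of the members after ischemia, -0.41 (SE 0.0230, Fisher's exact p = 4.48e-72), and 3 of the 120 abundant microRNAs lay below it. MiR-99a-5p followed with -0.36 (SE 0.0424). MiR-99b-5p was at -0.25 (SE 0.0143) and miR-125b-5p at -0.19 (SE 0.0269). All 4 were negative under every scaling tried, but on genome-aligned totals miR-125b-5p was within counting error (-0.04, Fisher's exact p = 0.151), which left 3 members lower in that sense. MiR-125a-5p differed from these with 0.03 (SE 0.0148, Fisher's exact p = 0.0227), which missed the threshold and was of opposite sign with DESeq2 size factors, library totals or totals without the 10 most abundant microRNAs. With genome-aligned totals it was higher in WI beyond counting error (0.19, Fisher's exact p = 4.23e-38), on a scale where the median of all tested microRNAs was 0.20. The rare arms had 0.24 less on the log2 scale for miR-125a-3p (SE 0.40) and 0.14 less for miR-99b-3p (SE 0.34), within counting error.

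IR against WI addressed reperfusion. MiR-125a-3p was the member called, 1 of 7, beside 9.25% of the 789 tested (3.04% called lower). With 27 reads before and 7 after, it fell by 1.55 (log2, SE 0.61, Fisher's exact p = 0.00545). If animals were assumed to vary with a coefficient of variation of 0.1, the call was lost (edgeR exact test, p = 0.0121). MiR-125a-5p, the main strand of the same hairpin, lay at the fold threshold. In IR it was at -0.58 on the log2 scale (SE 0.0167, Fisher's exact p = 1.06e-277), a fold of 1.4997 against the required 1.5, and 4 of 122 abundant microRNAs lay below it. Which side of the threshold it falls on depended on the scaling, since it was called with genome-aligned totals (-0.91).

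Beyond counting error, 3 members were lower in IR than in WI and 1 was higher, while 9.13% of all tested were lower. Among microRNAs with at least 1000 reads in the 2 libraries, 37.7% were lower and 29.5% higher. MiR-125a-3p is rarer than that. Of the 5 members at that depth, only miR-125a-5p and miR-99b-5p were lower, a share near that of the abundant microRNAs. MiR-99b-5p had a log2 fold change of -0.27 (SE 0.0160). MiR-99a-5p was higher, at 0.21 (SE 0.0439, Fisher's exact p = 1.42e-06), but was at -0.11 with genome-aligned totals. MiR-125b-5p had 0.02 (SE 0.0280, Fisher's exact p = 0.414). With genome-aligned totals miR-125b-5p was lower in IR beyond counting error (-0.30, Fisher's exact p = 3.5e-27). MiR-100-5p had -0.04 (SE 0.0253, Fisher's exact p = 0.0803), with the opposite sign under library totals. With genome-aligned totals miR-100-5p was lower beyond counting error (-0.37, Fisher's exact p = 1.08e-48). MiR-99b-3p did not differ beyond counting error (-0.03, SE 0.35). Genome-aligned totals moved the median of all tested microRNAs to -0.33 in this comparison, so on that scale miR-99a-5p and miR-125b-5p lay above the median and miR-100-5p below it.

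**Figure D2:**
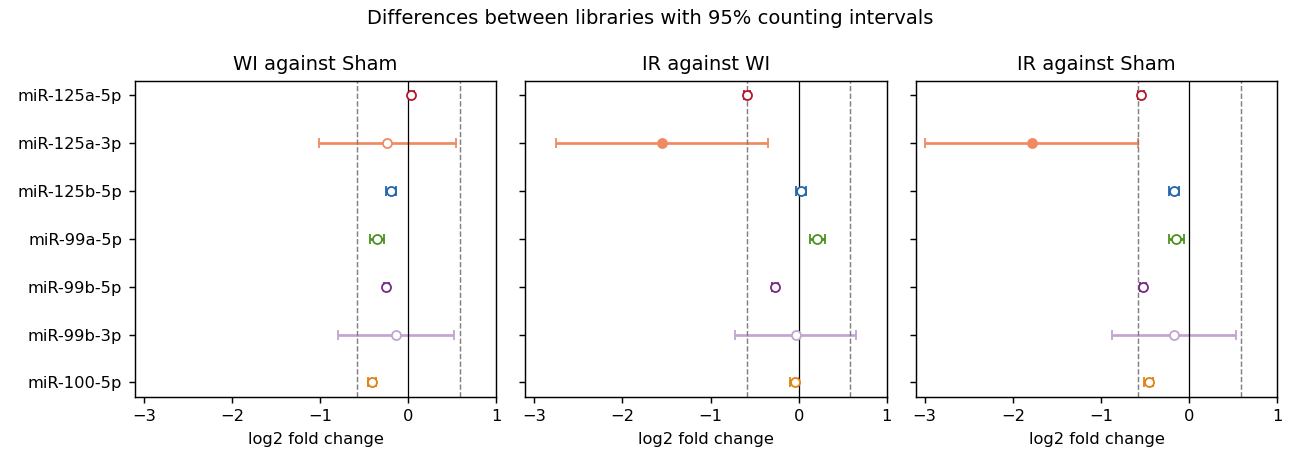
Log2 fold change of each member between libraries, with 95% intervals from read counts alone; dashed lines mark a fold of 1.5, and filled points were called. In IR against WI and IR against Sham, miR-125a-5p lies at -0.58 and -0.55 beside the dashed line, whereas miR-125b-5p lies at 0.02 and -0.17.

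IR against Sham spanned both stages, and its libraries are shared with the other comparisons, so it gives no independent evidence. Again 1 of 7 members was called, miR-125a-3p, beside 7.11% of the 774 tested (1.42% called lower). It lay at -1.79 on the log2 scale (SE 0.61, Fisher's exact p = 0.00139), and the call was lost at an assumed coefficient of variation of 0.2. Beyond counting error, 6 of 7 members were lower in IR, against 6.85% of all tested. MiR-99b-3p was the exception at -0.17 (SE 0.36). The 5 members with at least 1000 reads were all lower, against 31.9% of microRNAs at that depth (30.2% were higher). The median log2 fold change was -0.46 for the members and 0.04 for all tested.

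The 5p arms with the lowest fold changes among the members were miR-125a-5p and miR-99b-5p, both from chromosome 17. MiR-125a-5p had a log2 fold change of -0.55 (SE 0.0175, Fisher's exact p = 1.73e-223), a fold of 1.47, with 4 of 116 abundant microRNAs below it. MiR-99b-5p had -0.52 (SE 0.0161), a fold of 1.44, with 5 below it. Neither was called with TMM, and both were called with totals without the 10 most abundant microRNAs (-0.62 and -0.59). Both were called with genome-aligned totals too (-0.72 and -0.69), on a scale where the median of all tested microRNAs was -0.11. MiR-100-5p, a chromosome 9 product, was close behind at -0.46 (SE 0.0248). MiR-125b-5p had -0.17 (SE 0.0285) and miR-99a-5p -0.14 (SE 0.0435, Fisher's exact p = 0.000992). Signs of the 5 arms were negative in IR against Sham under every scaling tried.

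**Figure D3:**
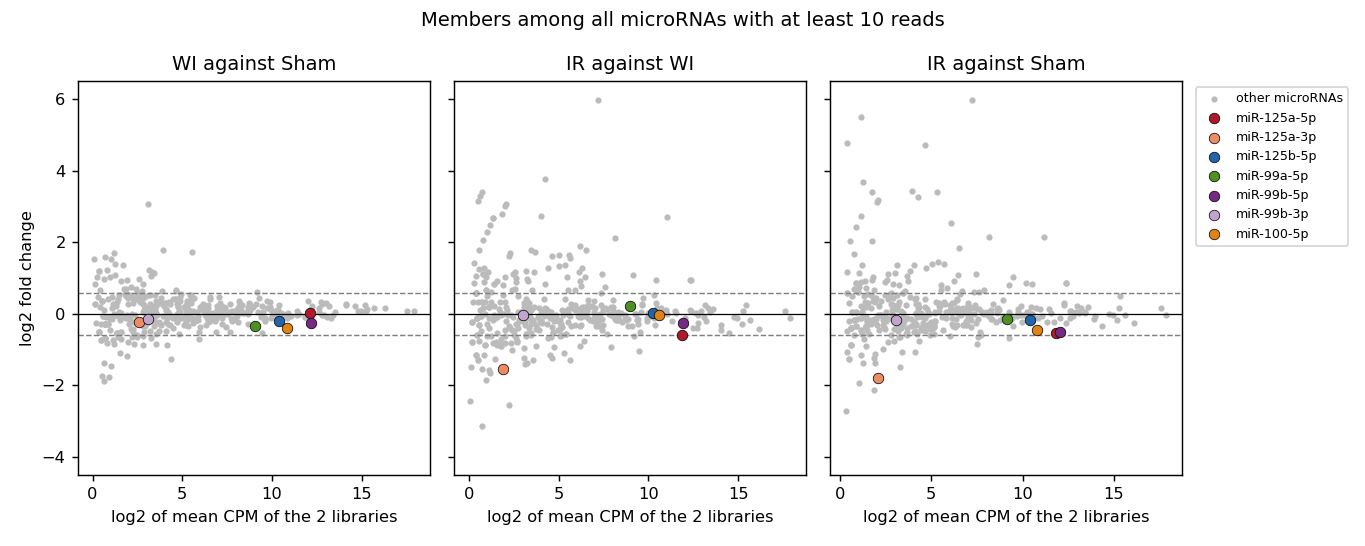
Log2 fold change against the log2 of the mean CPM for all microRNAs with at least 10 reads in the 2 libraries (grey) and the members (coloured), with dashed lines at a fold of 1.5. In IR against Sham miR-125a-5p and miR-99b-5p sit at the lower edge of the abundant microRNAs, with 4 and 5 of 116 below them.

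The courses of miR-125a-5p and miR-125b-5p were then compared directly by their read ratio inside each library, which does not depend on the scaling between libraries. MiR-125a-5p had 3.08 reads for each read of miR-125b-5p in the Sham sample, with a 95% exact interval of 2.99 to 3.18. The WI sample had 3.61 (interval 3.51 to 3.71) and the IR sample 2.37 (interval 2.29 to 2.45). The 3 intervals did not overlap. The ratio was highest after ischemia and lowest after reperfusion. On the log2 scale, the ratio was higher in the WI than in the Sham library by 0.23 (SE 0.0307, Fisher's exact p = 1.03e-13). Between WI and IR the change was -0.61 (SE 0.0326, Fisher's exact p = 1.05e-76), and IR against Sham gave -0.38 (SE 0.0334, Fisher's exact p = 8.95e-30). These microRNAs of 1 seed thus differed in course beyond counting error in every comparison. Counting all listed arms of both gave the same calls. With an assumed coefficient of variation of 0.1 for each microRNA in each library, no change of this ratio passed the p threshold, and variation between animals was not measured. If miR-125b-5p reads were counted once for each of its 2 hairpins, the ratios would be too low by a fixed factor and their changes would stay as given.

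Ratios between the chromosome 17 partners showed where the members of 1 cluster moved apart. MiR-99b-5p to miR-125a-5p was 1.16 for Sham (95% exact interval 1.14 to 1.18), 0.952 for WI (interval 0.934 to 0.971) and 1.18 for IR (interval 1.16 to 1.21). WI alone stood apart, and IR against Sham did not differ beyond counting error (log2 change 0.03, 95% interval -0.02 to 0.08, Fisher's exact p = 0.214). Let-7e-5p, the let-7 product of this cluster, had 1087 reads (Sham), 1427 (WI) and 1020 (IR), or 274, 293 and 267 CPM. Its ratio to miR-125a-5p was 0.0633, 0.0661 and 0.0902, and the change from Sham to IR was 0.51 on the log2 scale (SE 0.0653, Fisher's exact p = 7.77e-15). With TMM, let-7e-5p was at a near-constant level where its partners were lower, with -0.04 in IR against Sham (SE 0.0629, Fisher's exact p = 0.513).

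In the chromosome 16 cluster, miR-99a-5p was set against miR-125b-5p, part of whose reads come from there. The ratio was 0.424 (Sham), 0.380 (WI) and 0.433 (IR). Only WI was apart, and from Sham to IR the log2 change was 0.03 (95% interval -0.07 to 0.13, Fisher's exact p = 0.589). Let-7c-5p, which more than 1 hairpin produces, had 24248, 31063 and 24638 reads. Its ratio to miR-99a-5p was 10.3 (Sham), 13.7 (WI) and 11.9 (IR).

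For the chromosome 9 cluster, miR-100-5p to miR-125b-5p was 1.47 (Sham), 1.26 (WI) and 1.20 (IR). Both later libraries were below Sham beyond counting error, by 0.22 on the log2 scale in WI (SE 0.0354) and by 0.29 in IR (SE 0.0378). WI and IR did not differ from each other in this ratio (Fisher's exact p = 0.0754). The near-identical pair miR-99a-5p and miR-100-5p also moved apart, with a ratio of 0.289 (Sham), 0.301 (WI) and 0.359 (IR) (IR against Sham Fisher's exact p = 3.73e-10). Let-7a-5p, which several hairpins produce, had 33960, 48539 and 33188 reads.

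**Figure D4:**
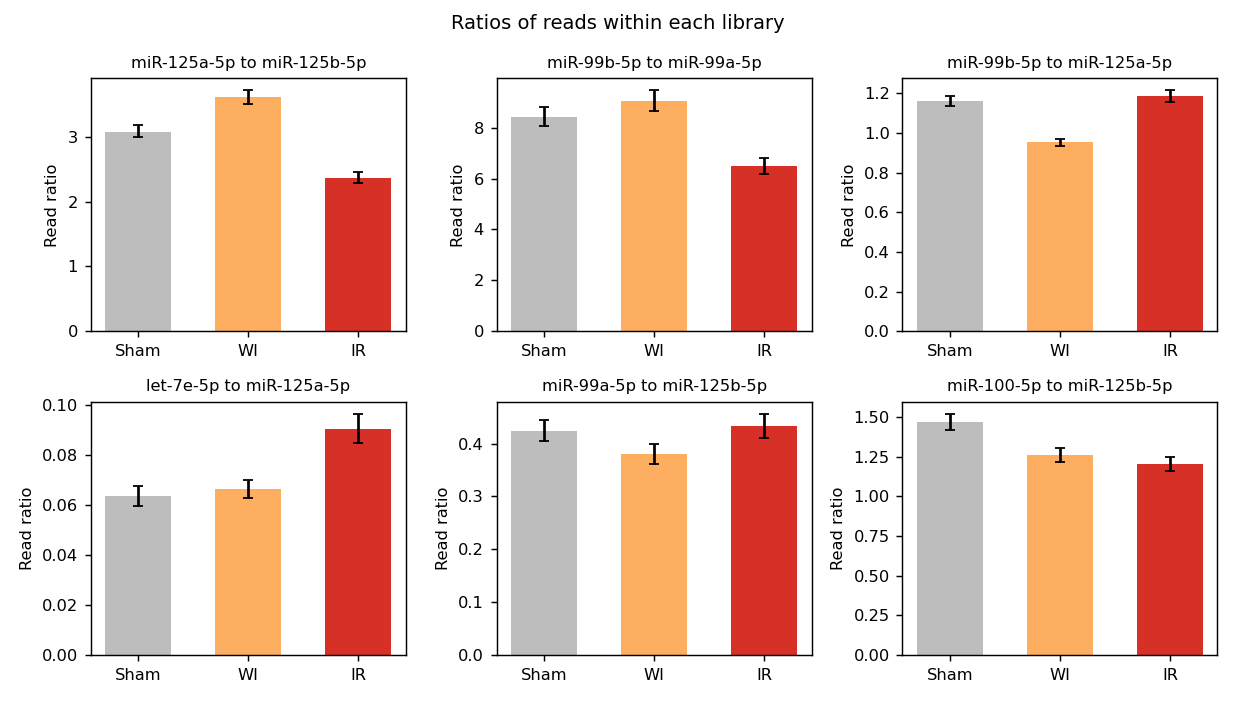
Ratio of reads of 2 microRNAs inside each library (bars, axis from 0), with 95% exact binomial intervals for counting error; 1 library per group. MiR-125a-5p to miR-125b-5p is 3.08 (Sham), 3.61 (WI) and 2.37 (IR), and miR-99b-5p to miR-99a-5p is 8.43, 9.06 and 6.48.

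Within the miR-99 seed, the read ratio of miR-99b-5p to miR-99a-5p was 8.43 (Sham), 9.06 (WI) and 6.48 (IR). From WI to IR its log2 fell by 0.48 (SE 0.0467, Fisher's exact p = 9.37e-25), and the difference between Sham and WI did not pass the p threshold (Fisher's exact p = 0.0208). This call too was lost with an assumed coefficient of variation of 0.1, as were all 19 ratio calls, among 36 ratio tests, that passed p under 0.01.

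The rare arms of the miR-125b hairpins, unlike miR-125b-5p, name their hairpin. MiR-125b-1-3p, from chromosome 9, had 61 reads (Sham), 54 (WI) and 39 (IR), or 15.4, 11.1 and 10.2 CPM. MiR-125b-2-3p, from chromosome 16, had 320, 432 and 325 reads, or 80.8, 88.8 and 85.0 CPM. The chromosome 16 arm thus had 5.25 reads for each chromosome 9 read in Sham, and 8.00 (WI) and 8.33 (IR) later. Neither WI nor IR differed from Sham at p under 0.01 (Fisher's exact p = 0.0433 and 0.0408), and the wide exact intervals of 3.98 to 7.02, 6.02 to 10.8 and 5.97 to 11.9 limit the comparison. The level of a 3p strand need not follow the share of miR-125b-5p made by its hairpin.

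Strand use was compared for the hairpins whose arms were both listed. MiR-125a-5p had 660 reads for each read of miR-125a-3p in Sham. The ratio was 799 in WI and 1616 in IR, where the exact interval ran from 784 to 4019, and no pair of libraries differed at p under 0.01 (IR against Sham, Fisher's exact p = 0.0323). A difference in course between the strands of miR-125a was therefore not detectable at this depth. For miR-99b the ratio of 5p to 3p was 569, 527 and 447, again within counting error. MiR-99a-3p had 47 reads (Sham), 79 (WI) and 63 (IR), and its ratio to miR-99a-5p was higher in WI (0.0348) than in Sham (0.0199) beyond counting error (Fisher's exact p = 0.00276), with 0.0305 in IR. MiR-100-3p had 1, 2 and 3 reads and was too rare to compare.

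All microRNAs with a shared seed were then summed, since a messenger RNA site for the seed is open to each of them. For the miR-125 seed, 5 listed microRNAs qualified, of which miR-6367 and miR-6394 had 0 reads. Their sum was 6163 CPM (Sham), 6121 (WI) and 4762 (IR), or 0.635% (95% Wilson interval 0.627 to 0.643), 0.588% (0.581 to 0.595) and 0.481% (0.474 to 0.488) of the reads. The seed was thus less abundant in IR, mainly through miR-125a-5p, whose share of the family went from 70.3% in Sham and 72.5% in WI to 62.1% in IR. MiR-125b-5p held 22.8%, 20.1% and 26.2%. MiR-351-5p had 1679, 2225 and 2126 reads and a level that was 0.39 higher on the log2 scale in IR than in Sham (SE 0.0471), so the members of this seed had opposite signs. Its share of the family was 6.88%, 7.47% and 11.7%.

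The miR-99 seed was carried by miR-99a-5p, miR-99b-5p and miR-100-5p. Their sum was 7689 CPM (Sham), 6240 (WI) and 5547 (IR), or 0.792%, 0.600% and 0.560% of reads. With TMM the larger step of this sum was between Sham and WI. With genome-aligned totals the larger step lay between WI and IR, where miR-99b-5p was at -0.59 and miR-100-5p at -0.37 on the log2 scale, after -0.10 and -0.26 between Sham and WI. MiR-99b-5p held 65.4% of this seed in Sham, 67.7% in WI and 63.2% in IR, miR-100-5p held 26.8%, 24.8% and 27.1%, and miR-99a-5p held 7.76%, 7.47% and 9.74%.

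**Figure D5:**
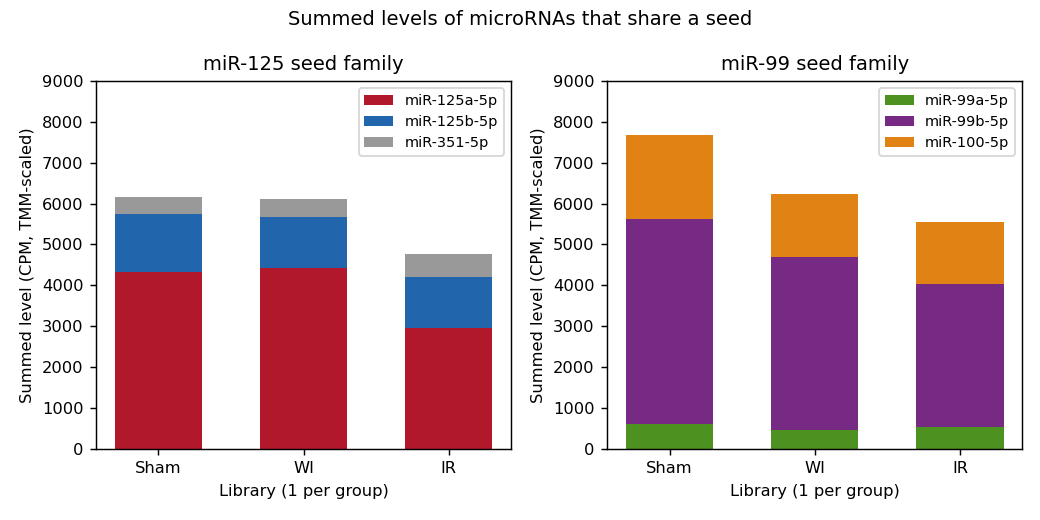
Summed level in CPM (TMM-scaled, axis from 0) of the microRNAs that share the miR-125 seed (left) or the miR-99 seed (right), stacked by microRNA, in 1 library per group. The miR-125 seed stands at 6163, 6121 and 4762 CPM in Sham, WI and IR, and the miR-99 seed at 7689, 6240 and 5547.

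To place the courses of miR-125a-5p and miR-125b-5p, the 135 other microRNAs with at least 1000 reads over the 3 libraries were ranked by distance in their 2 log2 changes from Sham, which is a description over 3 libraries. Nearest to miR-125a-5p was miR-145a-3p, at a distance of 0.0388, with 944 reads (Sham), 1198 (WI) and 638 (IR). The next were miR-340-5p, miR-3968, let-7f-5p and miR-30c-2-3p, at 0.232 to 0.282. Nearest to miR-125b-5p was miR-20a-5p at 0.0742, followed by miR-151-5p, miR-24-3p, miR-532-5p and miR-27a-3p at 0.0878 to 0.136. The course of miR-125b-5p thus had closer neighbours from the second rank on. Such distances depend on how many microRNAs have changes of that size. In IR against Sham, 4 of 116 abundant microRNAs lay below miR-125a-5p and 21 below miR-125b-5p.

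Bulk liver holds several cell types, and fewer cells of a type cannot be told apart from less of a microRNA per cell. Summed erythroid markers (miR-451a, miR-486-5p and miR-144-3p) were at 4926 CPM (Sham), 4651 (WI) and 8824 (IR), and 3 of 3 were called higher in IR against Sham. The 5 leukocyte markers summed to 3094 CPM (Sham), 3054 (WI) and 2806 (IR). Only miR-223-3p among them was called, higher in IR. Without a call, miR-142-3p was slightly higher in IR than in Sham, and miR-142-5p, miR-150-5p and miR-155-5p were lower. The 3 muscle markers summed to 6.82, 23.8 and 75.1 CPM, mostly from miR-133a-3p, with miR-1a-3p at 0 reads in Sham and miR-206-3p at 0 in Sham and WI. No hepatocyte, endothelial or stromal marker was called in any comparison. In the order Sham, WI and IR, hepatocyte markers summed to 259135, 277042 and 252134 CPM. Endothelial markers summed to 19267, 22783 and 17568 CPM, and stromal markers to 39670, 43072 and 35224 CPM. Each of these sums was lowest in IR, and they came mostly from miR-192-5p, miR-126a-5p and miR-143-3p. Single markers did not all follow: miR-126a-3p (2985 CPM), miR-199a-5p (217 CPM) and miR-214-3p (46.5 CPM) were highest in IR. The other hepatocyte, endothelial and stromal markers were lowest in IR. The part of these differences in the levels of the members was not tested.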

How the data were processed

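Small RNA from Sham, WI and IR livers was size-selected, ligated to adapters, amplified by PCR and sequenced. The deposited values are raw counts of reads per mature microRNA. The authors kept reads of 15 to 30 nt, aligned them with Bowtie 0.12.7 (1 mismatch allowed, at most 5 positions), sorted them with HTSeq and counted with miRDeep2. The methods of the study name mm9, and the labels mm10. Reads that match more than 1 mature sequence can be counted under each name: let-7a-1-3p and let-7c-2-3p had 155 and 155 reads in Sham, 248 and 247 in WI, and 131 and 131 in IR. How reads of the 2 miR-125b hairpins were merged was not stated. Without molecular identifiers PCR copies count as reads, so intervals and floors cover counting error only.

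Scaling used edgeR 4.0.16 (TMM factors 1.03, 0.961 and 1.01) in R 4.3.3. Log2 fold changes were taken on log2(CPM + 0.1), with SE from counts. Fisher's exact test (scipy 1.17.1) ran over all microRNAs with at least 1 read. With 1 library per group no replicate-based model was available. Of 36 ratio tests (12 ratios), 19 had p under 0.01, and 19 after Benjamini-Hochberg adjustment. In simulated IR against Sham counts, 200 microRNAs were given a planted log2 difference of 2. Of the planted ones with at least 30 reads, 88 of 88 were called, and 4 of 561 unchanged ones were called. The planted difference was larger than that of any member in IR against Sham (-0.55 for miR-125a-5p, -1.79 for miR-125a-3p). Recovery of smaller differences was therefore not tested, and the result does not speak to variation between animals, which was not measured. Alternatives used DESeq2 1.42.0 size factors, other totals, pseudocounts, thresholds, thinning and assumed coefficients of variation. Named microRNAs were the members, their cluster partners and other arms, the microRNAs with a shared seed, the 5 nearest courses and the cell type markers. Members, lists and ratios were chosen with earlier results of these data known. Positions come from GENCODE or, for let-7e and the chromosome 9 hairpins, from matches of RefSeq hairpins to NCBIM37.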

Additional observations from a re-analysis of the deposited data

How the results depend on the processing

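No paired analysis was possible because each group had 1 library, and for the same reason no replicate could be left out. Of 45 recomputed counts of called members, 34 kept the reported number. In IR against WI, 3 members were called with genome-aligned totals, 4 with no fold threshold, and 0 with an assumed coefficient of variation of 0.1, 0.2 or 0.4. In IR against Sham, 3 were called with totals without the 10 most abundant microRNAs, 4 with genome-aligned totals, 6 with no fold threshold, and 0 at 0.2 or 0.4. In WI against Sham, 4 were called with no fold threshold. The miR-125a-5p to miR-125b-5p ratio kept its direction and call when libraries were thinned or all arms were counted, and lost the call at an assumed coefficient of variation of 0.1 and of 0.2 for each pair of libraries, at 0.23 (Sham to WI), -0.61 (WI to IR) and -0.38 (Sham to IR). All of the 38 ratio calls lost were lost at these assumed values.

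Of 630 recomputed log2 fold changes of members and partners, 576 had the reported direction and call, a call was lost in 5 and gained in 27, and the sign turned in 22, with no call among those 22. In WI against Sham, miR-125a-5p became -0.011 (DESeq2), -0.0671 (library totals, p = 5.38e-06 by Fisher's exact test) and -0.0489 (10 most abundant left out), let-7e-5p -0.0050 (library totals), let-7c-5p -0.0403 (library totals) and -0.0221 (10 left out), and miR-99b-3p 0.015 (genome-aligned). With genome-aligned totals, IR against WI gave -0.30 for miR-125b-5p (p = 3.5e-27 by Fisher's exact test) and -0.11 for miR-99a-5p. On the same totals this comparison gave -0.31 for let-7c-5p, -0.30 for miR-99a-3p and -0.0426 for miR-351-5p. With library totals it gave 0.0411 for miR-99b-3p, 0.0285 for miR-100-5p and 0.0096 for miR-125b-2-3p. In IR against Sham, let-7a-5p became -0.0090 (DESeq2), -0.0106 (library totals), -0.0471 (10 left out), -0.15 (genome-aligned) and -0.0074 (thinned), and genome-aligned totals gave -0.0948 for let-7c-5p and -0.10 for miR-125b-2-3p. Genome-aligned totals moved the median of all tested microRNAs to 0.20, -0.33 and -0.11 in the 3 comparisons, where TMM gave 0.05, -0.01 and 0.04. Variation between animals was not measured, and the 3p arms of the members rest on 7 to 39 reads per library.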
